A study of Mus musculus with 4 samples.

Results

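Fibroblasts positive for both *Cxcl13* reporters (tdTomato+ eGFP+) were compared with fibroblasts positive for tdTomato alone (tdTomato+ eGFPneg), gene by gene, in single-cell RNA-seq of cancer-associated fibroblasts (CAF). A cell was kept as a fibroblast if it had 500 to 6000 detected genes, at most 10% of its UMIs (unique molecular identifiers, counted transcripts) from mitochondrial genes, no UMI of *Ptprc* (CD45, a leukocyte gene) or *Pax3* (a melanoma gene), and at least 3 UMIs of *Col1a1*, *Col1a2* and *Col3a1* together. This rule kept 853 of 984 barcodes in the tdTomato+ eGFP+ library and 4634 of 5299 in the tdTomato+ eGFPneg library, or 5487 of the 21098 fibroblasts kept over the whole series. Both libraries came from Cxcl13-cre-tdTomato mice crossed to the R26R-eGFPflox reporter (B6;129-Gt(ROSA)26Sortm2Sho/J), with C57Bl/6 given as the host strain. The mice carried B16-F1-OVA melanoma, a mouse tumor line that expresses ovalbumin, for 14 days after intraperitoneal injection. All cells had been sorted as CD45neg CD31neg and high for podoplanin, and the sort differed between the libraries in the reporter gate. Each gate was also its own library, so reporter class cannot be told apart from differences between library preparations. The tdTomatoneg eGFP+ library (5745 fibroblasts) and the tdTomatoneg eGFPneg library (9866), from the same outer sort and tumor model, were used for comparison. Each population was 1 library, and the number of mice behind each was not given in the sources used here. No test across samples was therefore possible. Intervals below are exact 95% intervals for counting error only, and cells were not treated as replicates.

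CXCL13 is a chemokine that draws B cells through the receptor CXCR5, and in lymphoid organs it is made by stromal cells of the B cell follicle. In tumors, fibroblasts that make it have been described near tertiary lymphoid structures, clusters of B and T cells that form outside lymphoid organs. In these mice the *Cxcl13* promoter of a transgene drives both tdTomato and Cre recombinase. Cre removes a stop cassette from the eGFP reporter at the Rosa26 locus, so that eGFP marks a cell, and its descendants, for good. The reporters follow the transgene and not the endogenous gene, and the reporter transcripts themselves were not analysed here.

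The kept cells had a median of 8732 UMIs and 2661 genes in the tdTomato+ eGFP+ library and 9117.5 UMIs and 2811 genes in the tdTomato+ eGFPneg library, with 8629965 and 45979572 UMIs in all. Fibroblast markers were present in both. Beyond the collagens used in the rule, *Dcn* (decorin) stood at 3473 and 3726 UMIs per 1000000 UMIs (CPM), *Pdgfra* at 287 and 341 CPM and *Pdpn* (podoplanin) at 277 and 319 CPM. The 8 endothelial markers summed to 6.72 and 6.83 CPM, with *Cldn5* at 0 in the tdTomato+ eGFP+ library. The 7 pericyte markers summed to 13.9 and 15.8 CPM, with *Rgs5* at 0 in the tdTomato+ eGFP+ library and at 2.26 CPM in the other. Cells with *Xist* UMIs and no Y-linked UMI ("Xist-only") numbered 358 and 2000, and cells with Y-linked UMIs and no *Xist* UMI ("Y-only") 195 and 1030, so both libraries held cells of both sexes in a like ratio. Cells with 5 or more UMIs of 16 cell cycle genes made up 33.5% and 36%. The libraries shared 2 cell barcodes.

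The sequence that ties the reporters to the gene is the *Cxcl13* promoter. The 250 bases before the start of *Cxcl13* (ENSMUSG00000023078) lie at chr5:95956689-95956938 on the plus strand of GRCm38.p6, from the RefSeq promoter table. They are printed 5′ to 3′ because this stretch precedes the gene that both reporters stand for, with the TATA box motif TATAAA in capitals.
Cxcl13: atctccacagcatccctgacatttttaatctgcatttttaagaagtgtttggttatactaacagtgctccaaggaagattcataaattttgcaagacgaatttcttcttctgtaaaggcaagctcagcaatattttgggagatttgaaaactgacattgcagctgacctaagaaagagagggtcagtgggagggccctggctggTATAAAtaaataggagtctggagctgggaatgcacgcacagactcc
The motif began 46 bases before the gene's start. Of 32851 RefSeq promoters, 12.4% held TATAAA on either strand in the same window. How much of this stretch the reporter transgene contains was not given in the sources used here.

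Across genes the tdTomato+ libraries were close to each other. Of 5905 genes with at least 20 CPM in at least 1 of the libraries, 98.2% lay within 1.5-fold. In the tdTomato+ eGFP+ library 25 genes were at least 1.5-fold higher (0.423% of genes compared) and 80 were at least 1.5-fold lower (1.35%), 1.78% in either direction, of which 6 and 22 were past 2-fold. Counting intervals lay wholly past 1.5-fold for 15 of the 25 and 41 of the 80. The median log2 ratio of tdTomato+ eGFP+ over tdTomato+ eGFPneg was −0.08, with 5th and 95th percentiles of −0.41 and 0.24. Scaling by trimmed means (TMM) moved that median to 0.00 and the counts to 34 higher and 56 lower. The filter matters for low genes: 5 of the 25 and 32 of the 80 passed only through the library in which they were higher. The plot of CPM in the 2 libraries shows the narrow band and the genes outside it.

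**Figure D1:**
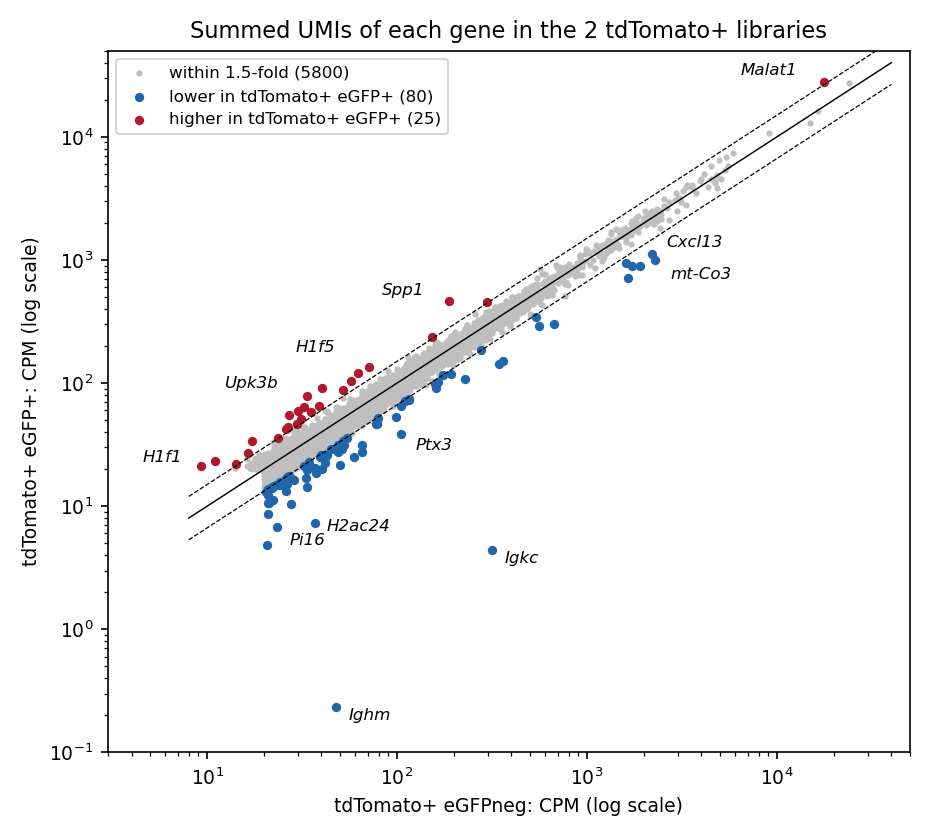
CPM of each of 5905 genes in the tdTomato+ eGFPneg library (x axis, log scale) and the tdTomato+ eGFP+ library (y axis, log scale); each point is 1 gene, the solid line marks equal CPM and the dashed lines 1.5-fold. Most genes lie between the dashed lines, *Cxcl13* and the mitochondrially encoded *mt-Co3* lie below them at high CPM, and *Spp1*, *Upk3b* and linker histone genes lie above.

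*Cxcl13* itself was lower in the cells that carried both reporters. It stood at 1123 CPM (1100 to 1145) in the tdTomato+ eGFP+ library and at 2203 CPM (2189 to 2216) in the tdTomato+ eGFPneg library, against 199 CPM in tdTomatoneg eGFP+ and 222 CPM in tdTomatoneg eGFPneg cells. The log2 ratio within the tdTomato+ pair was −0.97 (−1.0 to −0.94). All 4 levels thus followed the tdTomato gate, with both tdTomato+ libraries above both tdTomatoneg libraries. *Cxcl13* was detected in 44.4% (41.1% to 47.8%) of the double-positive cells and 69.3% (67.9% to 70.6%) of those with tdTomato alone. After each cell was thinned to 3500 UMIs, which left out 161 and 520 shallower cells, the shares were 36% and 58.7%.

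The difference in *Cxcl13* lay in cells with 0 UMIs and in cells with 3 or more. At 1 to 2 UMIs lay 16.8% (14.3% to 19.4%) of tdTomato+ eGFP+ and 18.2% (17.1% to 19.3%) of tdTomato+ eGFPneg cells, so these intervals overlap. At 3 to 9 UMIs lay 10.9% and 16.4%. Cells with 10 to 29 UMIs made up 8.79% of the tdTomato+ eGFP+ library and 15.7% of the tdTomato+ eGFPneg library. Cells with 30 to 99 UMIs made up 5.39% and 13.2%, and cells with 100 or more 2.58% (1.62% to 3.88%) and 5.85% (5.19% to 6.56%). Among cells with any *Cxcl13* UMI the median was 661 CPM in tdTomato+ eGFP+ and 1153 CPM in tdTomato+ eGFPneg cells. The transcript was also held by fewer cells: the top 1% of cells carried 32.0% of all *Cxcl13* UMIs in the tdTomato+ eGFP+ library and 17.1% in the other. Free RNA can give a UMI to a cell that does not express the gene. Among barcodes with a *Ptprc* UMI and fewer than 3 collagen UMIs, 3 of 8 in the tdTomato+ eGFP+ library (37.5%, 8.52% to 75.5%) and 11 of 53 in the tdTomato+ eGFPneg library (20.8%, 10.8% to 34.1%) held *Cxcl13*, at medians of 2743 and 3096 UMIs. The share of tdTomato+ eGFP+ fibroblasts with *Cxcl13* lay inside the first of these intervals and was not read as a share of expressing cells.

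**Figure D2:**
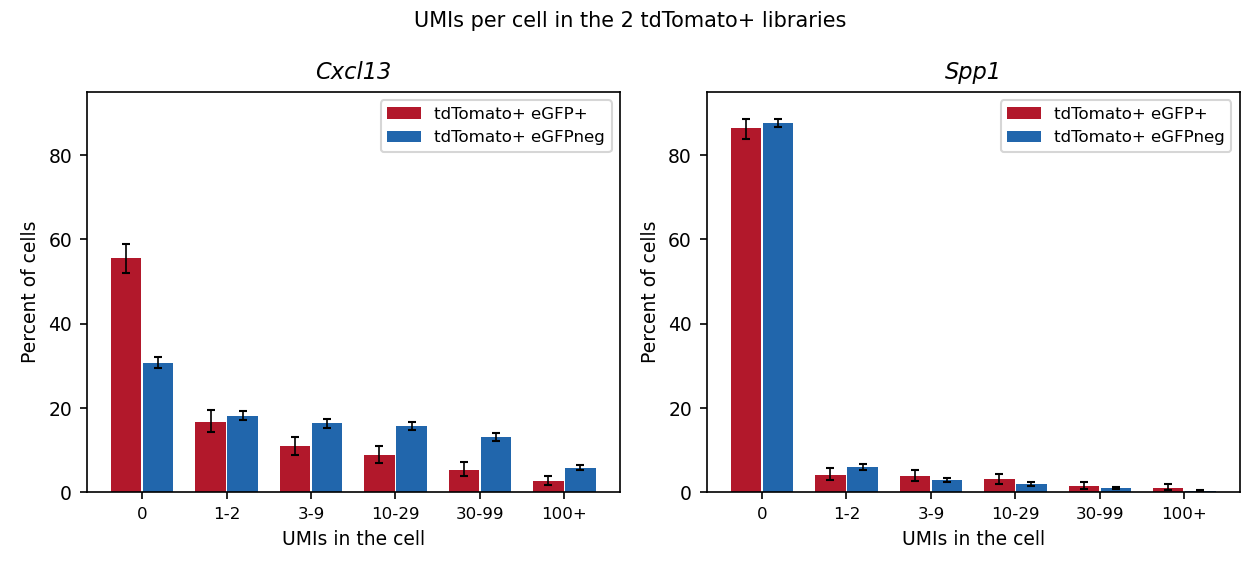
Percent of cells (y axis) by the number of UMIs of *Cxcl13* (left) and *Spp1* (right) in the cell (x axis), for tdTomato+ eGFP+ (red) and tdTomato+ eGFPneg (blue) fibroblasts; bars are shares and whiskers exact 95% binomial intervals. For *Cxcl13* the red bar is above the blue one at 0 UMIs (55.6% against 30.7%) and below it in every class above 0, while for *Spp1* both libraries have over 86% of cells at 0.

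The size of the *Cxcl13* difference was not the same in all classes of cells, though its sign was. In Xist-only cells the gene stood at 1275 CPM in tdTomato+ eGFP+ and 1851 CPM in tdTomato+ eGFPneg cells, a log2 ratio of −0.54. In Y-only cells it stood at 864 and 2384 CPM, a log2 ratio of −1.46, and in cells with neither or both marks at 1113 and 2674 CPM, a log2 ratio of −1.27. The Xist-only value lies within 1.5-fold, and the gap between the classes was not tested, since each class of each library came from an unknown number of mice. The ratio was −1.29 in cells with 5 or more cell cycle UMIs and −0.84 in the rest.

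Of the 19 genes listed as B cell attractants and lymphoid organizers, 11 were at 20 CPM or more. Past 1.5-fold were 2 of these, both lower: *Cxcl13* and *Ccl19*. Of all genes compared, 1.35% were lower by that measure. *Ccl19*, a chemokine for T cells and dendritic cells, stood at 19.9 and 40.2 CPM, a log2 ratio of −1.01 (−1.24 to −0.78), and its copy *Ccl19-ps2*, with which it can share reads, at 19.7 and 33.6 CPM. The *Ccl19* ratio was −1.56 in Xist-only cells and −0.49, within 1.5-fold, in Y-only cells. *Vcam1*, an adhesion molecule of lymphoid stroma, was at 373 and 387 CPM and in 78.4% and 81.6% of cells, a log2 ratio of −0.05. The list median was −0.24, beside −0.08 over all genes compared. *Ch25h* and *Cyp7b1* make the oxysterol that guides B cells. *Ch25h* stood at 77.9 and 106 CPM, a log2 ratio of −0.45, and *Cyp7b1* at 215 and 230 CPM, a log2 ratio of −0.09. *Cyp7b1* was at 0.16 in Xist-only cells and past 1.5-fold lower, at −0.61, in Y-only cells. *Ch25h* was past 1.5-fold lower in Y-only cells too, at −0.70, and at −0.41 in Xist-only cells. *Tnfsf13* (APRIL) stood at 11 and 9.66 CPM and *Tnfsf13b* (BAFF), the B cell survival factors, at 6.72 and 8.29 CPM. The intervals of both log2 ratios held 0, at −0.15 to 0.51 and −0.73 to 0.10.

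Over all kept cells the cytokines compared and the checkpoint ligand lay within 1.5-fold. *Il6* was at 156 and 208 CPM (log2 ratio −0.42), *Il33*, an alarmin, at 518 and 485 CPM (0.09), *Csf3*, the granulocyte factor, at 72.5 and 81.4 CPM (−0.17) and *Cd274* (PD-L1) at 42.6 and 45.4 CPM (−0.09). In Y-only cells *Csf3* was past 1.5-fold lower, at 41 and 68.4 CPM (−0.74), against 0.04 in Xist-only cells, and *Il33* was at −0.57 in Y-only and 0.29 in Xist-only cells. *Fap*, a protease that marks many CAF, was at 16.2 and 21.9 CPM (−0.43). None of the 17 cytokines and growth factors compared was past 1.5-fold either way over all kept cells. Of 13 other chemokines, 2 were lower by that measure and none higher, beside 1.35% and 0.423% of all genes compared. The 2 were *Ccl5* at 10.4 and 27.5 CPM and *Ccl11* (eotaxin) at 46.1 and 77.3 CPM. In Y-only cells both lay within 1.5-fold, at −0.58 and −0.15. The abundant *Ccl2*, a monocyte chemokine, stood at 3894 and 4311 CPM.

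The gene with the highest ratio was *Spp1* (osteopontin, a secreted matrix glycoprotein that binds integrins). It stood at 464 CPM (449 to 478) in the tdTomato+ eGFP+ library and 187 CPM (183 to 191) in the tdTomato+ eGFPneg library, a log2 ratio of 1.31 (1.26 to 1.36). The share of cells with *Spp1* was 13.6% (11.4% to 16.1%) and 12.3% (11.4% to 13.3%), so the intervals of the shares overlap. A few cells held most of the transcript: 9 tdTomato+ eGFP+ cells with 100 or more UMIs carried 66.6% of the library's *Spp1*, and 20 tdTomato+ eGFPneg cells carried 42.4%. Such cells were 1.06% (0.484% to 1.99%) and 0.432% (0.264% to 0.666%) of each library. The log2 ratio was 1.98 in Xist-only, 0.98 in Y-only and −0.08 in the remaining cells. *Cthrc1*, a secreted protein made by matrix-producing fibroblasts, was higher in level and in share: 103 and 57.3 CPM, a log2 ratio of 0.85 (0.74 to 0.96), in 25.0% and 18.0% of cells. Its log2 ratio was 0.73 and 0.76 within Xist-only and Y-only cells. In the tdTomatoneg eGFPneg library *Spp1* stood at 489 CPM and *Cthrc1* at 172 CPM, both above the tdTomato+ eGFP+ level. The tdTomatoneg eGFP+ library held them at 187 and 46.2 CPM.

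Genes of mesothelium, the epithelium that lines the peritoneal cavity, were among the listed groups on the higher side. Of 17 listed genes 9 were compared. Of these, 4 were at least 1.5-fold higher and none lower, beside 0.423% and 1.35% of all genes compared. The list median was 0.46. *Upk3b* (uroplakin 3B, a membrane protein of mesothelium) stood at 78.0 and 33.7 CPM, a log2 ratio of 1.21 (1.08 to 1.34), and was found in 19.1% and 12.5% of cells. *Upk1b* stood at 91.7 and 40.4 CPM, a log2 ratio of 1.18 (1.06 to 1.30), *Gpm6a* at 44.3 and 26.8 CPM and *Lrrn4* at 50.8 and 31.2 CPM. Other members lay within 1.5-fold: *Wt1*, a transcription factor of mesothelium, was at 197 and 221 CPM, *Krt19* at 53.5 and 50.9 CPM and *Lgals7* at 95 and 89.6 CPM. The classical markers *Msln*, *Krt8* and *Krt18* were low in both libraries, at 18.7 and 11.8, 5.33 and 9.09, and 4.87 and 4.24 CPM, while *Krt8* reached 72.5 and 130 CPM in the tdTomatoneg libraries. Claudin 3 (*Cldn3*), a tight junction protein outside the list that was picked after its values were seen, stood at 42.6 and 25.9 CPM. The *Upk3b* ratio was 1.66 in Xist-only cells and 0.56 in Y-only cells. In Y-only cells *Upk1b* (0.49), *Lrrn4* (0.28), *Gpm6a* (0.18) and *Cldn3* (0.23) also lay within 1.5-fold, and the gap between the classes was not tested. The 17 genes together summed to 931 and 740 CPM, a log2 ratio of 0.33 (0.30 to 0.37), and in Y-only cells to 949 and 940 CPM. In the tdTomatoneg eGFP+ and tdTomatoneg eGFPneg libraries they summed to 2107 and 1814 CPM, above both tdTomato+ libraries. *Upk3b* stood there at 149 and 102 CPM and *Upk1b* at 230 and 179 CPM.

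Of the linker histone genes *H1f1*, *H1f4* and *H1f5* were higher, in a list drawn up after the values were seen. H1 histones bind the DNA between nucleosomes, and their mRNAs are made mainly while DNA is copied and mostly lack a poly(A) tail, so that a poly(A)-based library catches a part of them. Of the 4 H1 genes compared, 3 were at least 1.5-fold higher and none lower, beside 0.423% and 1.35% of all genes compared. *H1f1* stood at 21.3 and 9.29 CPM, a log2 ratio of 1.20 (0.94 to 1.45). *H1f4* stood at 63.5 and 32.5 CPM, a log2 ratio of 0.97 (0.82 to 1.11), and *H1f5* at 122 and 62.3 CPM, with the same log2 ratio. *H1f2* differed from them, at 45.4 and 47.3 CPM. Over all 66 replication-dependent histone genes, 9 were compared, of which 4 were higher (*H1f1*, *H4c4*, *H1f5*, *H1f4*) and 1 lower, with 59 and 63 of the 66 detected at all. This list too was drawn up after the values were seen. *H1f1* and *H4c4* passed the 20 CPM filter only through the tdTomato+ eGFP+ library, and the lower gene only through the other. The counts of H1 and histone genes past 1.5-fold are therefore only a description. *H4c4*, which encodes core histone H4, stood at 23.2 and 11 CPM, a log2 ratio of 1.08. The exception was *H2ac24*, an H2A gene, at 7.30 and 36.8 CPM, a log2 ratio of −2.33 (−2.72 to −1.97), in 5.86% and 14.4% of cells. Histone genes have near-identical copies that can share reads, so the split between copies is uncertain. The 5 H1 genes summed to 496 and 259 CPM in cells with 5 or more cell cycle UMIs, a log2 ratio of 0.94, and to 72.8 and 70.2 CPM in the rest. In the rest *H1f4* (15.6 and 7.44 CPM) and *H1f5* (8.32 and 4.16 CPM) were still higher. *H1f1* was near 0 there, at 1.25 and 1.00 CPM, a log2 ratio of 0.32 (−1.26 to 1.64). The cell cycle genes themselves summed to 1397 and 1299 CPM, with 0 of 16 past 1.5-fold.

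The promoters of the 3 H1 genes that were higher and of *H1f2*, which was not, are shown so that they can be set side by side. Each line gives the 250 bases before the gene's start, 5′ to 3′ on the gene's strand, from the RefSeq promoter table (GRCm38.p6). Capitals mark the TATA box motif TATAAA. They also mark the CCAAT box, on either strand, and the H1 box motif AAACACA, all searched on both strands. The matches did not overlap each other.
H1f1 (chr13:23763418-23763667, plus strand): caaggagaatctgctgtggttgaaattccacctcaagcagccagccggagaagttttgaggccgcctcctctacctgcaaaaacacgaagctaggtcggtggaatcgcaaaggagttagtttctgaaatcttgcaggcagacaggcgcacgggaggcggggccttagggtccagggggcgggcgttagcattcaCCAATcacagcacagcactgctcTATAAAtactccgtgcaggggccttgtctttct
H1f4 (chr13:23622559-23622808, minus strand): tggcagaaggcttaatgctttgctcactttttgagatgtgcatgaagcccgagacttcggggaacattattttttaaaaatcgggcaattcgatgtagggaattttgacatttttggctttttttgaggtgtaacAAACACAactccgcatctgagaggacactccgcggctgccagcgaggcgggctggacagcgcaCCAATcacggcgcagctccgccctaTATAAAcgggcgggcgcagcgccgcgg
H1f5 (chr13:21780626-21780875, minus strand): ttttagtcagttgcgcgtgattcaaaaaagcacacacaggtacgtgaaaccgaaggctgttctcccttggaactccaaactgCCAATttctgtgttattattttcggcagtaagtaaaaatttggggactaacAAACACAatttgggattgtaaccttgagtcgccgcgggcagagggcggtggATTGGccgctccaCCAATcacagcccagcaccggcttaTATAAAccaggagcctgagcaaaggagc
H1f2 (chr13:23738557-23738806, plus strand): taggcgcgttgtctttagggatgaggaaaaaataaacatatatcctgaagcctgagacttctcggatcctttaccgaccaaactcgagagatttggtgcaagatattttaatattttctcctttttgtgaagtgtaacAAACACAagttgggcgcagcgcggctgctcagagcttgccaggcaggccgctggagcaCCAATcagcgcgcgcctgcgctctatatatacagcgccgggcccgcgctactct
The exact letters TATAAA were found in *H1f1*, *H1f4* and *H1f5*, starting 33, 27 and 28 bases before the gene's start, and not in this window of *H1f2*. Near its end the *H1f2* line holds the run tatatata, which this exact search did not mark. Whether that run serves as a TATA box was not tested, so *H1f2* is not described as lacking one. CCAAT was found in all 4, starting 56, 52, 53 and 54 bases before the start, in the order of the lines, and at 2 more places in *H1f5*. AAACACA was found in *H1f4*, *H1f5* and *H1f2*, starting 115, 117 and 112 bases before it. Over all 32851 promoters, 12.4% held TATAAA, 33.8% CCAAT, 6.25% AAACACA and 0.39% all 3. These matches are a description of the letters and were not tested for use.

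Other genes of the higher end lay outside the listed groups. Of these, *Smpd3*, *Gucy1a1* and *Hpgd* are taken up again with the mesothelial classes below. *Smpd3*, a neutral sphingomyelinase, stood at 54.7 and 27.1 CPM, *Gucy1a1*, a subunit of the nitric oxide receptor guanylate cyclase, at 34.0 and 17.2 CPM, and *C77080*, a gene without an established role, at 58.9 and 30.0 CPM. *Hpgd*, which degrades prostaglandins, stood at 135 and 71.4 CPM, a log2 ratio of 0.92. In Y-only cells the ratios of *Hpgd* (0.12) and *Smpd3* (0.39) lay within 1.5-fold. Among genes picked after their values were seen, *Cdkn2a*, which encodes cell cycle inhibitors, stood at 65.6 and 39.0 CPM, in 34.4% and 23.4% of cells. The nuclear RNA *Malat1* made up 2.81% of UMIs in the tdTomato+ eGFP+ library and 1.77% in the other, a log2 ratio of 0.67.

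Among the genes with the lowest ratios was *Pi16*, a marker of adventitial fibroblasts. It stood at 6.84 and 23.4 CPM, a log2 ratio of −1.77 (−2.18 to −1.39), in 2.81% and 6.75% of cells. *Pcsk5*, a proprotein convertase, stood at 4.87 and 20.6 CPM, a log2 ratio of −2.08 (−2.56 to −1.63), and *Gpc3*, a glypican, at 8.57 and 21.0 CPM. These 3 genes passed the 20 CPM filter only through the tdTomato+ eGFPneg library. So did *H2ac24*, *Ccl5*, *Ccl19*, *Ccl19-ps2*, *Mfap4*, *Srgn*, *Oas1a*, *Igkc* and *Ighm* among the genes named here. On the higher side *H1f1*, *H4c4* and *Gucy1a1* passed only through the tdTomato+ eGFP+ library. *Ptx3*, a secreted pentraxin of innate defence, stood at 38.9 and 105 CPM, a log2 ratio of −1.43 (−1.60 to −1.27), and was low in all 3 classes of sex mark (−1.56, −1.59 and −1.02). *Svep1* and *Sned1*, both matrix proteins, stood at 31.3 and 65.7 CPM and at 21.4 and 50.3 CPM. Of the 26 listed matrix glycoproteins, all compared, 2 were lower (*Ogn* at 27.4 and 49.2 CPM, *Mfap4* at 12.3 and 21.0 CPM) and 2 higher (*Spp1*, *Cthrc1*). Over all genes compared 1.35% were lower and 0.423% higher. Of 10 universal fibroblast genes compared, only *Pi16* and *Gpc3* were past 1.5-fold, both lower, while the list as a whole summed to 3277 and 3270 CPM. Of 18 collagen genes 1 was lower, *Col14a1*, at 31.5 and 52.8 CPM. *Col1a1* stood at 7443 and 5854 CPM, a log2 ratio of 0.35, and *Col3a1* at 12870 and 14933 CPM, −0.21.

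**Figure D3:**
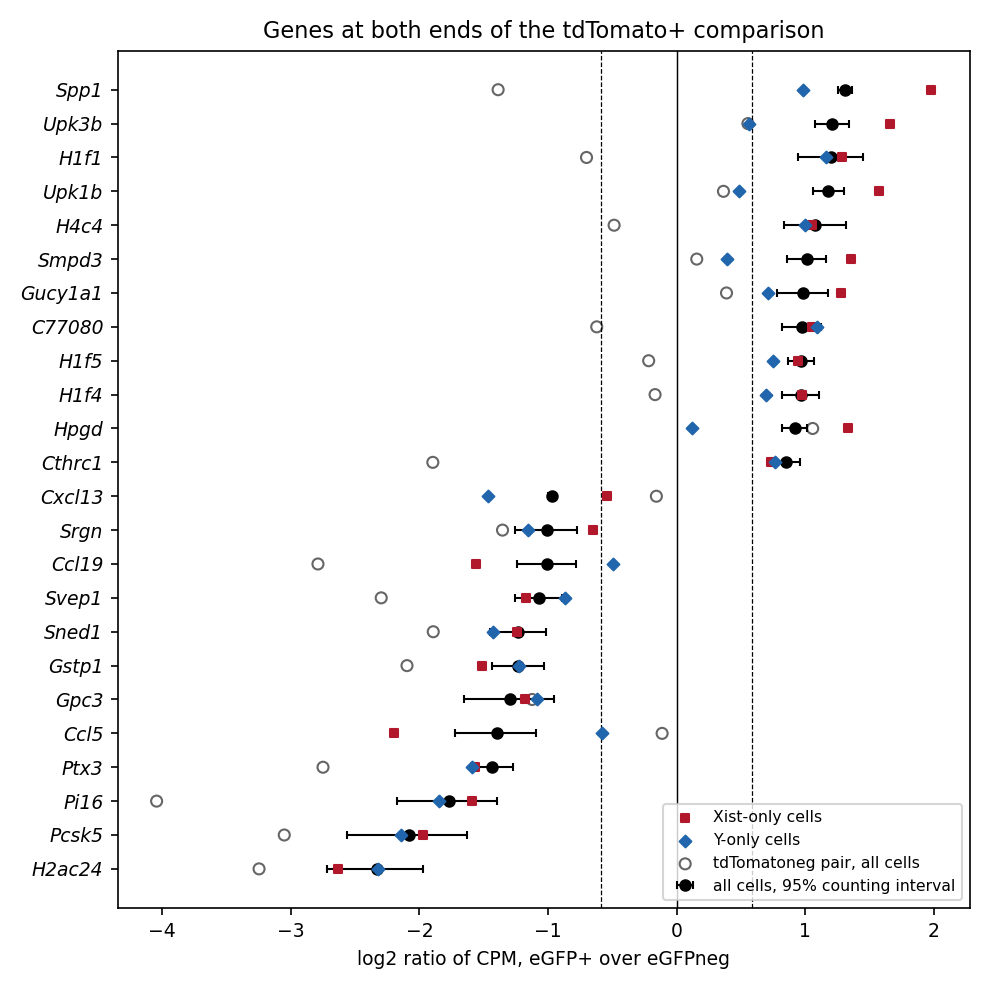
Log2 ratio of CPM, eGFP+ over eGFPneg (x axis), for the 12 genes with the highest and 11 of the 12 with the lowest ratio in the tdTomato+ pair and for *Cxcl13* (y axis). Black points with 95% counting intervals are all tdTomato+ cells, red squares Xist-only and blue diamonds Y-only tdTomato+ cells, open circles the tdTomatoneg pair, and dashed lines 1.5-fold. *Spp1* and *Cthrc1* lie on opposite sides of 0 in the 2 pairs, at 1.31 and −1.39 and at 0.85 and −1.90.

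*Gstp1*, a glutathione transferase, stood at 25.3 and 59.4 CPM, a log2 ratio of −1.23. It has near-identical copies in the genome, so its count is uncertain. *Srgn* (serglycin, abundant in leukocytes) stood at 18.5 and 37.3 CPM, and once cells with a *Ptprc* or *Pax3* UMI were let in its log2 ratio was −0.25. All 11 mitochondrially encoded genes compared were lower, with log2 ratios from −1.27 (*mt-Nd2*) to −0.76 (*mt-Cytb*). The 13 such genes summed to 5283 and 10976 CPM. Median mitochondrial shares per cell were 0.337% and 0.933%, and 0.176% and 0.702% in the tdTomatoneg eGFP+ and tdTomatoneg eGFPneg libraries, so in both pairs the eGFP+ library was the lower. The part of library quality in these ratios was not tested. Leaving mitochondrial genes out of the totals gave 25 higher and 83 lower genes.

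Immunoglobulin, immune and melanoma transcripts were scarcer in the tdTomato+ eGFP+ library. *Igkc*, the immunoglobulin kappa constant gene of B cells and plasma cells, stood at 4.40 CPM (3.12 to 6.04) and 316 CPM (311 to 321), and *Ighm* was counted 2 times and 2192 times, a log2 ratio of −7.68 (−10.73 to −5.83). In the tdTomato+ eGFPneg library 96.3% of *Igkc* UMIs lay in 1% of cells, and 16.9% of its cells held an immunoglobulin UMI against 4.34%. Of the 13 immune markers, 11 were detected in tdTomato+ eGFP+ cells, where *Cd3e* and *Nkg7* were at 0, and all 13 in tdTomato+ eGFPneg cells, with sums of 22.4 and 79.8 CPM (63.9 and 46.2 CPM in the tdTomatoneg eGFPneg and tdTomatoneg eGFP+ libraries). Once cells with a *Ptprc* or *Pax3* UMI were let in, the log2 ratio of the immune markers went from −1.83 to −0.37, within 1.5-fold, and that of the immunoglobulin genes from −6.10 to −1.52. The 10 melanoma markers, all detected in both, summed to 28.6 and 56.6 CPM, and *Pmel* stood at 0.70 and 7.85 CPM. The summed melanoma markers had log2 ratios of −0.22 in Xist-only and −0.56 in Y-only cells, both within 1.5-fold. In cells with neither or both marks they stood at 19.7 and 103 CPM, a log2 ratio of −2.40. Without the cells that held an immunoglobulin UMI (37 and 785 cells), an alternative chosen after seeing the data, 26 genes were higher and 81 lower. The part of these transcripts in *Ccl5*, *Srgn* and other leukocyte-expressed genes was not tested.

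The tdTomatoneg libraries gave another comparison of eGFP+ with eGFPneg cells that shares no library with the first, and it was wider. There 290 of 5987 genes were at least 1.5-fold higher (4.84%) and 291 at least 1.5-fold lower (4.86%), 9.7% in either direction. Of the 80 genes lower in the tdTomato+ pair, 42 were lower past 1.5-fold in the tdTomatoneg pair too and 9 were higher. Those shared included *Pi16* (−1.77 and −4.04), *Ptx3* (−1.43 and −2.75), *H2ac24* (−2.33 and −3.25), *Ccl19* (−1.01 and −2.79), *Gstp1* (−1.23 and −2.10) and all 11 mitochondrially encoded genes. Of the 25 higher genes, 8 were higher past 1.5-fold and 5 were lower. *Hpgd* (0.92 and 1.06), *Lrrn4* (0.70 and 0.81) and *Cdkn2a* (0.75 and 1.17) were higher in both, while *Upk3b* was higher by 1.21 and 0.55. *Cxcl13* had log2 ratios of −0.97 and −0.16. Whether the pairs differ was not tested, since each side of each was 1 library.

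**Figure D4:**
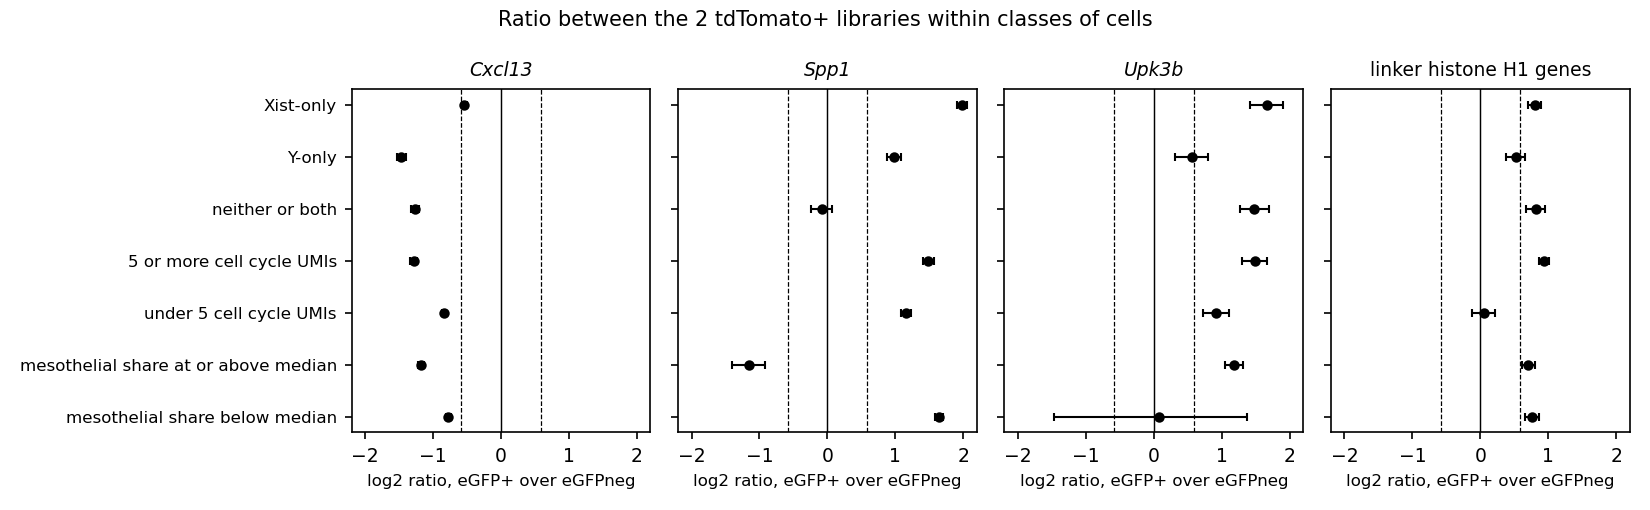
Log2 ratio of tdTomato+ eGFP+ over tdTomato+ eGFPneg (x axis) for *Cxcl13*, *Spp1*, *Upk3b* and the summed H1 genes within classes of cells (y axis); points are ratios of summed CPM, whiskers 95% counting intervals and dashed lines 1.5-fold. *Cxcl13* is below 0 in all 7 classes, *Spp1* changes side with the mesothelial share (−1.16 and 1.64), and the H1 ratio is 0.05 in cells with under 5 cell cycle UMIs.

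Classes by mesothelial share, cut at the median of 0.0432% of a cell's UMIs, put some of these ratios in different cells. The listed mesothelial genes define this cut, so their own ratios within the classes are only a description. *Cxcl13* was lower in both classes, with log2 ratios of −1.17 at or above the median and −0.77 below it. *Spp1* stood at 37.8 and 84.2 CPM at or above the median (−1.16) and at 885 and 284 CPM below it (1.64). In tdTomato+ eGFP+ cells *Smpd3*, *Gucy1a1* and *Hpgd*, outside the list, stood at 107, 62.5 and 259 CPM at or above the median. Below it they stood at 3.23, 5.76 and 12.4 CPM. Their log2 ratios were 1.07, 1.04 and 0.99 at or above the median and −0.56, 0.26 and −0.35 below it. *Pi16* stood at 9.32 and 7.68 CPM at or above the median and at 4.38 and 38.1 CPM below it (−3.12). The *Svep1* log2 ratio was −0.26 (−0.61 to 0.08) at or above the median, within 1.5-fold, and −1.29 below it. Of the kept cells 60 and 289 lay within 10% of the cut.

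**Figure D5:**
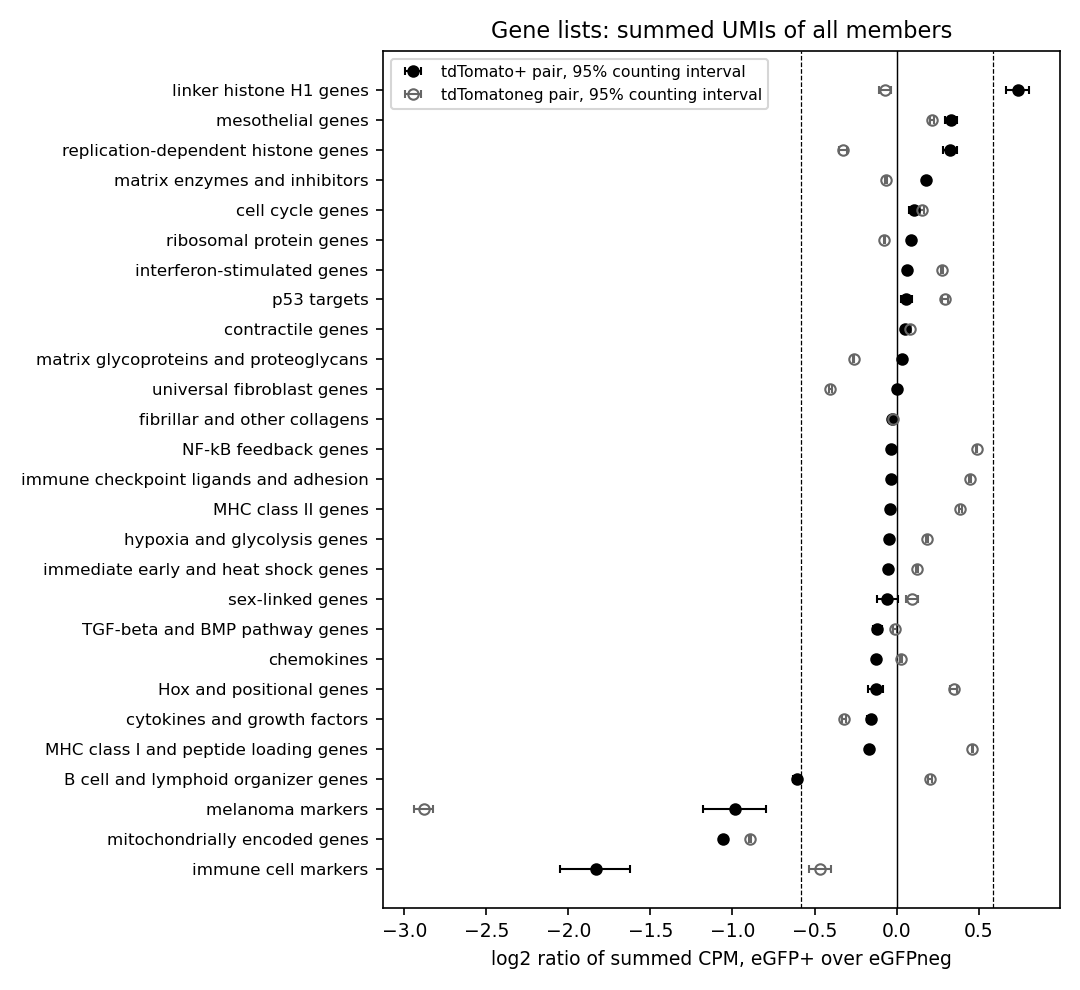
Log2 ratio of summed CPM, eGFP+ over eGFPneg (x axis), for gene lists (y axis) in the tdTomato+ pair (filled) and the tdTomatoneg pair (open), with 95% counting intervals and dashed lines at 1.5-fold. In the tdTomato+ pair the H1 genes lie above 1.5-fold, and the lymphoid organizer genes (−0.61), melanoma markers (−0.98), mitochondrially encoded genes (−1.05) and immune markers (−1.83) below it, while every other list plotted lies between −0.17 and 0.33.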

How the data were processed

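Single-cell RNA-seq matrices of 4 sorted fibroblast libraries were analysed, 1 per reporter class. The deposited values are raw UMI counts per gene and barcode, made by the authors with Cell Ranger and STAR against GRCm39. The submitters' processing notes name Cell Ranger 10.0.0 and Seurat 5.0, and the matrix headers name Cell Ranger 8.0.0. Kept cells were summed per library and scaled to 1000000 UMIs (CPM), with 1 UMI worth 0.116 and 0.0217 CPM in the tdTomato+ eGFP+ and tdTomato+ eGFPneg libraries. Genes at 20 CPM or more in at least 1 library were compared, and 1.5-fold was the threshold. Shares and CPM carry exact binomial and Poisson intervals and ratios an exact conditional interval, at 95%. The ratio calculation was tested on simulated data.

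Samples were grouped by the labelled reporter class. Named genes were a set of CAF and B cell genes, and the 12 highest and 12 lowest genes found in at least 5% of cells of a library, with the same direction in Xist-only and Y-only cells and leaving out sex-linked, mitochondrial, ribosomal, immunoglobulin and haemoglobin genes, markers of other cells and gene models without a name. Of these genes 1 is not reported here. Up to 2 genes at each end of a list, and members needed to describe a family, were also named, and a few others were named after their values were seen. The members and lists were chosen with earlier results of these data known. Doublets were not removed in the values given. Removing the highest Scrublet scores (5 and 188 cells) was 1 of 20 alternative settings, which also varied the filters, scaling, depth and classes of cells. Promoter sequences came from RefSeq (GRCm38.p6), another build than the files' own, and were matched by symbol. Scripts used scipy 1.17.1 for intervals, scanpy 1.11.5 for Scrublet, matplotlib 3.10.9 for figures, pandas 2.3.3 and numpy 2.4.6 under Python 3.11.15, and edgeR 4.0.16 (R 4.3.3) for TMM factors alone.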

Additional observations from a re-analysis of the deposited data

Results flagged for a closer look

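For 5 results the eGFP+ library lay past 1.5-fold on one side within the tdTomato+ pair and past 1.5-fold on the other side within the tdTomatoneg pair. The difference between the pairs was not tested, since each side was 1 library. *Spp1* had a log2 ratio of 1.31 in the tdTomato+ pair and −1.39 in the tdTomatoneg pair. *Cthrc1* had 0.85 and −1.90, and *C77080* had 0.97 and −0.62. The summed immunoglobulin genes had −6.10 and 0.64, with 8 of 377 listed genes detected in the tdTomato+ eGFP+ library. The 5 erythroid markers had 1.07 and −1.14, at sums of 2.55 and 1.22 CPM in the tdTomato+ pair, where 2 of the 5 were detected in tdTomato+ eGFP+ cells and *Alas2* made up most of the sum.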

How the results depend on the processing

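No paired analysis was possible because each population is 1 library, and for the same reason no replicate could be left out. *Cxcl13* was below 0 under all 18 settings that gave it a ratio. Its log2 ratio was −0.90 with TMM factors, −0.89 with median-of-ratios factors, −1.02 as a mean over cells and −1.02 after thinning. It was −0.54 in Xist-only, −1.46 in Y-only and −0.84 in cells with under 5 cell cycle UMIs, −1.17 and −0.77 at or above and below the median mesothelial share, and −1.0 standardized over 12 classes of cells. The number of higher genes, 25, became 38 with totals free of mitochondrial, ribosomal, immunoglobulin and *Malat1* UMIs (a setting chosen after seeing the data), 40 after thinning, 43 in Xist-only cells, 46 at or above the median mesothelial share, 2100 with no CPM filter and 7 at 100 CPM or more. The number of lower genes, 80, became 53 with median-of-ratios factors, 164 after thinning, 258 in Y-only cells, 123 and 162 at or above and below the median mesothelial share, 2117 with no filter and 24 at 100 CPM or more. Subsets hold fewer UMIs, so their counting error is larger. Higher genes were 23.8% of those past 1.5-fold, and 37.8% and 41.1% with TMM (34 and 56 genes) and median-of-ratios factors (37 and 53), 11% in Y-only cells and 12% below the median mesothelial share, and 49.8% with no filter. Opposite signs came up in 58 of 557 values of gene lists and 20 of 612 of named genes. The ratio over all cells was within 1.5-fold for 57 of the 58 and for 15 of the 20. Among results past 1.5-fold the sign turned for the erythroid markers in Xist-only cells (−0.60), for *Spp1* (−1.16) and *Pi16* (0.28) at or above the median mesothelial share, and below it for *Upk1b* (−0.27), *Smpd3* (−0.56) and *Hpgd* (−0.35). The cause was not tested. Of 432 values of the 24 genes at both ends, 427 kept their sign and 412 stayed past 1.5-fold. These genes were picked as extremes of the same cells, and for the same direction in Xist-only and Y-only cells. Both classes are among the settings counted, so part of this agreement was fixed by the choice and it is only a description.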

Other observations

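Stress and antigen presentation genes held a few further differences within the tdTomato+ pair. Of 19 hypoxia and glycolysis genes compared, 3 were at least 1.5-fold lower in tdTomato+ eGFP+ cells and none higher, beside 1.35% and 0.423% over all genes, and the whole list had a summed log2 ratio of −0.05. *Adm* (adrenomedullin, a vasodilator peptide) stood at 46.1 and 78.4 CPM, *Ndrg1*, induced by hypoxia, at 98.4 and 157 CPM, and *Eno1*, a glycolytic enzyme, at 185 and 278 CPM. *Eno1* lay within 1.5-fold in both Xist-only (−0.54) and Y-only cells (−0.43), *Ndrg1* in Xist-only (−0.42) and *Adm* in Y-only cells (−0.50). Of 18 MHC class I and peptide loading genes 1 was lower, *H2-Q6*, which has near-identical copies, at 117 and 175 CPM. Its log2 ratio of −0.59 was just past 1.5-fold, and it lay within it in Xist-only (−0.57) and Y-only cells (−0.53). Of 27 interferon-stimulated genes 1 was lower, *Oas1a*, at 11.2 and 22.2 CPM. None of 7 MHC class II, 9 p53 target, 23 immediate early and heat shock or 18 NF-kB feedback genes was past 1.5-fold. Nor was any of 13 TGF-beta and BMP, 17 checkpoint and adhesion or 18 matrix enzyme genes. The same held for 9 contractile, 5 Hox and positional, 2 sex-linked and 80 ribosomal protein genes. *Cdkn1a*, a cell cycle inhibitor that p53 induces, stood at 229 and 189 CPM, and *Timp1*, an inhibitor of matrix proteases, at 6871 and 5417 CPM.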
